A study of Mus musculus with 2 samples.

Results

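Mural nuclei belong to the cells that wrap blood vessels, the smooth muscle cells of arteries and veins and the pericytes of capillaries. They were chosen by unique molecular identifiers (UMIs, each standing for 1 captured RNA molecule). A mural nucleus had at least 4 summed UMIs of 10 mural genes, *Notch3*, *Rgs5*, *Mcam*, *Cspg4*, *Tagln*, *Cnn1*, *Lmod1*, *Kcnmb1*, *Myh11* and *Acta2*. It also had fewer than 10 UMIs of 8 adipocyte genes (*Plin1*, *Cidec*, *Pde3b*, *Acsl1*, *Dgat2*, *Pnpla2*, *Adrb3* and *Aqp7*) and at most 1 UMI of *Upk3b*, *Msln*, *Ptprb*, *Pecam1* and *Cybb*, which mark mesothelial, endothelial and immune cells. By this rule 143 of 15058 nuclei were mural, 23 of 2833 in replicate 1 and 120 of 12225 in replicate 2.

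The nuclei came from visceral (gonadal) adipose tissue, VAT, of 2-month-old female C57BL/6J mice, for which the labels name no transgene or treatment, with 1 library from each of 2 mice. The study profiled fat of young and aged mice to follow how its cells change with age, and its subcutaneous and 26-month libraries were not used here. The sample labels give 10x Genomics as the platform and adipocytes as the cell type, whereas the extraction protocol names the Singleron GEXSCOPE nucleus kit and the methods describe nuclei of whole tissue. With 1 age and 1 depot, all comparisons are between nuclei of the same 2 libraries.

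Smooth muscle cells contract through actin and myosin when calcium enters or leaves its stores, and so set the width of arterioles. Pericytes sit within the basement membrane of capillaries, depend on PDGF-B released by the endothelium, and help to keep capillaries stable. In white adipose tissue the capillary network is dense around adipocytes, and mural cells there have also been studied as a possible source of adipocyte progenitors.

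The libraries differed in depth. Replicate 1 held 7344 called nuclei with 15431248 UMIs and replicate 2 held 17148 called nuclei with 51617708 UMIs, and 2833 and 12225 of them were kept for having more than 500 genes, more than 1000 UMIs and a mitochondrial share below 15%. The mural nuclei of replicate 1 summed to 42019 UMIs, and the median mural nucleus held 1625 UMIs from 918 genes. In replicate 2 the sum was 269725 UMIs and the median nucleus held 2118.5 UMIs from 1286 genes. The other filtered nuclei were deeper, with medians of 2226 and 2740 UMIs. Mitochondrial UMIs made up a median of 4.57% of a mural nucleus in replicate 1 and 0.564% in replicate 2, against 6.21% and 0.622% in the other nuclei. The 2 libraries shared 85 called barcodes, 27 of them after filtering, and no mural barcode was mural in both. A barcode of 1 mural nucleus also belonged to a filtered nucleus of the other library.

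The share of mural nuclei had overlapping intervals in the libraries. It was 0.812% in replicate 1 (exact Clopper-Pearson 95% interval 0.515 to 1.22%) and 0.982% in replicate 2 (0.814 to 1.17%), with a mean of 0.897% ± 0.120 (SD, n = 2). Intervals here and below cover counting error only. Raising the required mural UMIs to 6 brought the mean share to 0.601%, and lowering them to 3 brought it to 1.56%. With fewer than 5 adipocyte UMIs required, the shares were 0.388% (0.194 to 0.694%) and 0.851% (0.696 to 1.03%), with intervals that did not overlap.

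Many members lay close to the threshold. A sum of exactly 4 mural UMIs was found in 4 mural nuclei of replicate 1 and 24 of replicate 2, while 8 and 59 had at least 10. The median sums were 8 and 9 UMIs and the highest 111 and 113. Just outside, 21 and 72 nuclei had 3 mural UMIs and met the other limits. Another 276 nuclei of replicate 1 and 650 of replicate 2 had at least 4 mural UMIs but failed a limit on other cell types, in 261 and 629 cases the limit on adipocyte UMIs. Without *Mcam* and *Cspg4*, 21 and 45 of the nuclei outside the rule had 4 UMIs of the other 8 mural genes.

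No doublet caller was run. The rule itself limits the UMIs of other types, and the members were also scored against gates of at least 4 UMIs (10 for adipocytes) from markers of each other class. Of the mural nuclei, 2 in replicate 1 and 27 in replicate 2 passed such a gate. In replicate 2 these were 18 for fibro-adipogenic progenitors (FAPs, the fibroblast-like cells from which adipocytes form), 11 for mesothelial, 2 for endothelial and 1 for immune nuclei, with some nuclei passing more than 1. Adipocyte UMIs were frequent below the limit of 10, since 12 of 23 members in replicate 1 and 16 of 120 in replicate 2 had 5 to 9 of them, and 4 and 34 had none.

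The labelled cell type was checked against the 5 genes *Notch3*, *Myh11*, *Acta2*, *Rgs5* and *Lmod1*. All belong to the rule, so their levels describe the choice of the nuclei and were not tested. A level in CPM is what a gene would have if all UMIs of the set of nuclei came to 1000000. *Notch3*, the receptor through which endothelial ligands mature mural cells, reached 1428 CPM in the mural nuclei of replicate 1 and 1216 in replicate 2, against 14.4 and 8.75 in all other nuclei, and 52.2% and 59.2% of mural nuclei held a UMI of it. *Myh11*, the myosin heavy chain of smooth muscle, stood at 1023 and 2124 against 20.3 and 12.8. *Acta2*, smooth muscle actin, stood at 1119 and 664 against 18.3 and 7.39. All 3 genes were far higher in the chosen nuclei of both libraries. For *Rgs5*, a brake on G protein signalling in pericytes, the levels were 643 and 530 against 14.6 and 5.54, and for *Lmod1*, which nucleates actin filaments in smooth muscle, 381 and 334 against 6.88 and 4.79. The marker genes thus mark these nuclei in each library, as the choice by the same genes requires.

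The other 5 genes of the rule differed in how well they set the nuclei apart. *Tagln*, the actin-binding transgelin, had 547 and 404 CPM in mural nuclei against 19.9 and 4.33 elsewhere, and *Cnn1*, calponin, 95.2 and 51.9 against 4.04 and 2.15. *Kcnmb1*, the beta subunit of the calcium-activated potassium channel, had no UMI in the mural nuclei of replicate 1, which allows up to 71.4 CPM, and 26.0 CPM in replicate 2. *Mcam*, an adhesion molecule also made by other cells, stood at 1238 and 415 in mural nuclei and at 299 and 79.9 in the others. Mural nuclei held 2.03% and 2.85% of all *Mcam* UMIs, and 4.40% and 1.34% of those of *Cspg4*, the NG2 proteoglycan, whose levels were 666 and 204 against 72.3 and 85.0. Without these 2 genes, 15 of 23 members in replicate 1 and 101 of 120 in replicate 2 still had 4 UMIs, while 6 and 5 had none, and the shares of mural nuclei were 0.529% and 0.826%.

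**Figure D1:**
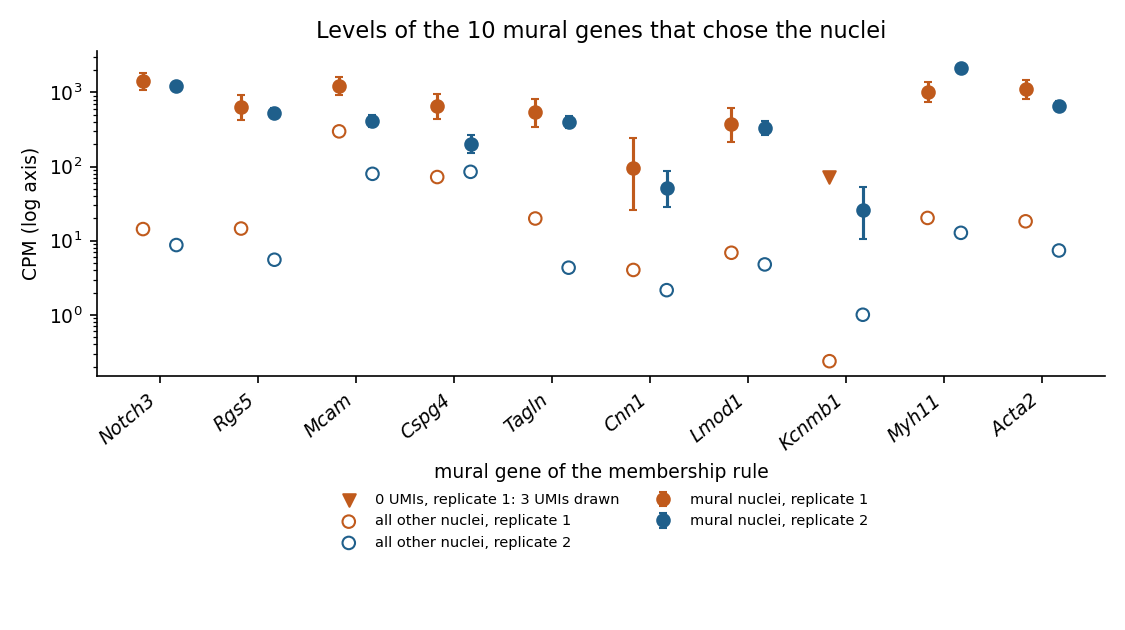
Levels of the 10 mural genes of the membership rule, in CPM on a log axis, for each library. Filled points are mural nuclei with exact Poisson 95% intervals, open points all other nuclei, and the triangle marks a gene with no UMI, drawn at 3 UMIs. *Notch3* stands at 1428 and 1216 in mural nuclei and at 14.4 and 8.75 elsewhere, while *Mcam* and *Cspg4* lie closer to the other nuclei.

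Contractile RNA was spread unevenly over the mural nuclei. The 6 contractile genes of the rule (*Tagln*, *Cnn1*, *Lmod1*, *Kcnmb1*, *Myh11* and *Acta2*) gave 133 UMIs over 12 of the 23 mural nuclei of replicate 1 and 972 UMIs over 94 of the 120 of replicate 2. A single nucleus of replicate 1 held 83 of its 133 contractile UMIs and 4641 of the 42019 mural UMIs of its library. In replicate 2 the nucleus with most held 94 of 972. The values of contractile genes in replicate 1 therefore rest largely on 1 nucleus, and the counts below are also given without it where that matters, an alternative chosen after seeing the data.

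Promoters of smooth muscle genes are known for the CArG box, a 10-base element bound by serum response factor. It was looked for by name, on both strands, in the 250 bases upstream of the start of 21618 protein-coding genes (GENCODE vM39, GRCm39), in which all 6 contractile rule genes and all 31 genes of the contractile apparatus list were found. The exact box lay in 304 promoters, 1.41% of all. It lay in 1 of the 6 contractile rule genes, *Tagln*, in 2 of the 31 contractile apparatus genes, *Dmd* and *Vcl*, and in none of the 23 pericyte genes or the 28 channel and calcium genes. With 1 mismatch allowed it lay in 4086 promoters (18.9%), in 10 of the 31 contractile apparatus genes (32.3%), in 7 of the 28 channel and calcium genes (25%), in 4 of the 23 pericyte genes (17.4%) and in 2 of the 22 genes of the cGMP and cAMP list (9.09%). The windows around the 3 exact boxes are shown because these are the members of the 2 contractile lists that hold one, although *Vcl* was not called against all other nuclei. The box is in capitals and each sequence reads 5′ to 3′ on its gene's strand. The windows are chr9:45847429-45847498 on the minus strand for *Tagln*, where the box starts 64 bases upstream, chrX:81992348-81992417 on the plus strand for *Dmd*, 96 bases upstream, and chr14:20979216-20979278 on the plus strand for *Vcl*, 227 bases upstream.
Tagln: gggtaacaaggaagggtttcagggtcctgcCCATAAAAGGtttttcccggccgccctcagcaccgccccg
Dmd: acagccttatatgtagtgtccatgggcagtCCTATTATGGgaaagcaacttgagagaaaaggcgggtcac
Vcl: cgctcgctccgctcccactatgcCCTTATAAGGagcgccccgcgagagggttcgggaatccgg
A match describes the letters of the window and says nothing of binding in these nuclei.

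Compared with all other filtered nuclei, mural nuclei had higher levels of 17 of 30 contractile apparatus, 12 of 23 pericyte and 14 of 27 channel and calcium genes. In the cGMP and cAMP list 9 of 22 were higher. No enrichment test was run, and with fewer than 5 adipocyte UMIs required the contractile count was 1 of 29. The low adipocyte RNA of mural nuclei follows from the limit of 10 adipocyte UMIs in the rule. The question of this comparison is which genes beyond the rule set vessel wall nuclei apart from the whole tissue, of which adipocyte-gated nuclei made up 46.3% in replicate 1 and 40.1% in replicate 2. UMIs were summed per library and set of nuclei, and 16907 genes were tested, without the 23 rule genes. By edgeR, with a Benjamini-Hochberg adjusted p under 0.05 and a log2 fold change beyond 1 in either direction required, 340 genes (2.01%) were higher and 317 (1.87%) lower in mural nuclei. The median log2 fold change of all genes tested was −0.15. These p-values measure only the spread between these 2 libraries.

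The counts moved with several choices, of which the mitochondrial limit of 5% left 12 mural nuclei in replicate 1. The higher genes numbered 192 by DESeq2, 200 with a mitochondrial limit of 5%, 110 after thinning each nucleus to 1000 UMIs, 225 without the nucleus richest in contractile UMIs, and 84 when members had to have fewer than 5 adipocyte UMIs, which left 11 of them in replicate 1. The lower genes numbered 20 by DESeq2, 209 without TMM factors, 122 with the 5% limit, 65 after thinning, 72 with the adipocyte limit of 5, and 203 were lower by a log2 of at least 1 without replicate 2, so the lower calls are the weaker of the pair.

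The gene with the strongest test was *Abcc9*, which encodes the sulfonylurea receptor subunit of the vascular ATP-sensitive potassium channel. It had 1261 CPM in mural nuclei of replicate 1 and 660 in replicate 2, against 13.1 and 14.5 in all other nuclei, a log2 fold change of 5.58 ± 0.48 (SE; edgeR, Benjamini-Hochberg adjusted p = 4.5e-27). Its partner *Kcnj8*, the pore of the same channel and its neighbour on chromosome 6, had 95.2 and 141 against 3.92 and 2.36 (5.10 ± 0.86). Both subunits of the channel were thus higher in both libraries. Among the 15 genes chosen by the largest fold changes, the highest fitted value was that of *Ndufa4l2*, which encodes a mitochondrial protein related to a respiratory chain subunit (119 and 33.4 against 0.712 and 0.502, log2 fold change 6.12 ± 0.79). *Aspn*, the matrix proteoglycan asporin, had 547 and 371 against 6.65 and 4.75 (5.90 ± 0.55).

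Several of the 15 genes act in signals between cells or at the membrane. *Gja4*, the gap junction protein connexin 37, had 143 and 44.5 CPM against 1.19 and 0.795, with a log2 fold change of 5.80. *Gipr*, the receptor of the gut hormone GIP, had 167 and 96.4 against 1.42 and 2.39 (5.46). *Rgs4*, a GTPase activator for G proteins, had 47.6 and 104 against 2.02 and 1.05 (5.76), from 2 and 28 UMIs. *Lin7a*, a scaffold protein with a PDZ domain, had 595 and 415 against 7.72 and 12.5 (5.16), and *Stac*, an adaptor of voltage-gated calcium channels, 309 and 434 against 7.24 and 9.96 (5.04). Each was higher in mural nuclei of both libraries, although the counts in replicate 1 were small for *Gja4*, *Gipr* and *Rgs4*. *Heyl*, *Myl9*, *Gucy1b1*, *Des* and *Ppp1r14a*, also among the 15, belong to the gene groups that follow.

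Among the 10 genes chosen by the largest negative fold changes, 3 had no UMI in mural nuclei. Against a floor of 3 UMIs over both libraries, *C1qc*, a complement gene of macrophages, was at least 6.75-fold lower. *Orm3*, an orosomucoid, was at least 4.82-fold lower and *Ighm*, the heavy chain of immunoglobulin M, at least 3.14-fold lower. *Skp1*, a subunit of a ubiquitin ligase, *Mindy1*, a deubiquitinase, and *Oxtr*, the oxytocin receptor, had 1 UMI each in mural nuclei, and *Dmrt2*, a transcription factor gene, had 3. *Snhg11*, a long noncoding RNA, had 47.6 and 74.2 CPM against 357 and 650, a log2 fold change of −3.40 ± 0.54. The other 2 were *Lncbate1*, a noncoding RNA known from thermogenic adipocytes (0 and 18.5 against 97.7 and 173), and *Acat2*, an enzyme of sterol synthesis (23.8 and 14.8 against 136 and 166). Of these 10 genes, only *Snhg11* was also called by DESeq2.

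Genes of the contractile apparatus were higher in number and size than genes in general. Of 30 tested, 17 were higher, 1 was lower and 12 were not called, with a median log2 fold change of 2.04. *Myl9*, the regulatory light chain of smooth muscle myosin, had 405 and 263 CPM against 9.26 and 4.23 (5.33 ± 0.58). *Mylk*, the kinase that switches this chain on, had 881 and 1034 against 76.0 and 77.0 (3.22 ± 0.43), and *Tpm1*, tropomyosin, 881 and 734 against 37.5 and 37.5 (3.98 ± 0.45). *Des*, the intermediate filament desmin, had 309 and 174 against 5.70 and 4.50 (5.07 ± 0.66). *Ppp1r14a*, which inhibits myosin phosphatase, stood at 119 and 37.1 against 1.19 and 1.38 (4.98 ± 0.76). These 5 genes had higher levels in the mural nuclei of both libraries, while *Myl6*, *Actn1*, *Vcl* and *Ppp1r12b* were among the 12 not called. The lower gene was *Sgcd*, delta-sarcoglycan, at 381 and 437 against 1228 and 1438 (−2.11 ± 0.41), which was not called by DESeq2. Without the nucleus of replicate 1 richest in contractile UMIs, 14 genes of the list were higher. With fewer than 5 adipocyte UMIs required, which removes that nucleus and 11 others from replicate 1, 1 of 29 genes tested was called higher (*Actg2*), at a list median of 1.56.

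Pericyte genes were also called higher often, and none was called lower. Of 23 tested, 12 were higher and 11 were not called, and their median log2 fold change was 2.40. *Pdgfrb*, the receptor through which endothelial PDGF-B recruits pericytes, had 976 and 412 CPM in mural nuclei against 17.7 and 15.6 (4.78 ± 0.48; edgeR, Benjamini-Hochberg adjusted p = 9.6e-20). *Postn*, the matrix protein periostin, had 452 and 567 against 38.8 and 18.7 (3.91 ± 0.50), and *Vtn*, vitronectin, 143 and 29.7 against 3.32 and 1.32 (4.47 ± 0.80). *Ebf1*, a transcription factor of both pericytes and the adipocyte lineage, was at 2213 and 2221 in mural nuclei and at 1515 and 1941 in the others, and was not called. With the adipocyte limit of 5, 8 of 20 genes tested were higher, *Abcc9*, *Kcnj8* and *Pdgfrb* among them.

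Of 27 ion channel and calcium handling genes tested, 14 were higher and 13 were not called (median 2.53, or 1.24 after thinning). *Cacna1c*, the pore of the L-type calcium channel that starts contraction, had 1571 and 2477 CPM against 45.5 and 60.8 (4.80 ± 0.44; edgeR, Benjamini-Hochberg adjusted p = 4.6e-24), and its beta subunit *Cacnb2* had 381 and 1290 against 35.7 and 58.2 (3.63 ± 0.47). *Ano1*, a chloride channel opened by calcium, stood at 1071 and 771 against 90.3 and 119 (2.67 ± 0.42), but at 1199 and 975 in mesothelial-gated nuclei. *Kcnq5*, a voltage-gated potassium channel, was at 2237 and 1157 against 49.0 and 60.8 (4.42 ± 0.43). Calcium and potassium channels were thus among the higher genes, and *Ano1* did not set mural nuclei apart from mesothelial ones. *Itpr1* and *Atp2a2*, the release channel and the pump of the calcium store, were at 286 and 349 against 191 and 285, and at 238 and 204 against 178 and 171, and were not called. With the adipocyte limit of 5, 6 of 26 genes tested were higher, including *Cacna1c* and *Kcnq5*.

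Genes of cyclic nucleotide and G protein signalling were higher in part. Of 22 tested, 9 were higher, 1 was lower and 12 were not called (median 1.12). *Gucy1b1*, the beta subunit of the nitric oxide receptor guanylate cyclase, had 381 and 171 CPM against 5.70 and 4.60 (5.16 ± 0.64). The alpha subunits *Gucy1a1* and *Gucy1a2* had 286 and 256 against 15.6 and 21.6 (3.42), and 1404 and 1290 against 48.3 and 62.6 (4.17). *Prkg1*, the kinase that cGMP activates to relax smooth muscle, had 2285 and 3930 against 121 and 190 (3.87 ± 0.41), *Irag1*, its target at the calcium store, 214 and 823 against 23.03 and 37.28 (3.62), and *Pde5a*, which breaks down cGMP, 357 and 619 against 16.1 and 22.9 (4.24 ± 0.50). The 6 genes named were picked from the 9 higher ones. *Plcb1*, a phospholipase below G proteins, was lower at 833 and 586 against 1589 and 1855 (−1.75 ± 0.39). With the adipocyte limit of 5, 3 of 21 genes tested were higher, *Gucy1a2*, *Gucy1b1* and *Prkg1*.

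Receptors for vasoactive hormones and transmitters did not move together. Of 29 tested, 6 were higher, 4 were lower and 19 were not called, with a median of 0.19. The higher genes were the angiotensin receptor *Agtr1a* (643 and 423 CPM against 12.5 and 15.9, log2 fold change 4.73 ± 0.50), the sphingosine phosphate receptor *S1pr3* (190 and 59.3 against 4.15 and 2.68, 4.49 ± 0.78), the neuropeptide Y receptor *Npy1r*, the ATP-gated channel *P2rx1*, the prostacyclin receptor *Ptgir* and the endothelin receptor *Ednra* (524 and 289 against 77.3 and 97.4, 1.68 ± 0.46). *Npy1r*, *P2rx1* and *Ptgir* rested on 12, 8 and 9 mural UMIs. The lower genes were *Adra1a*, *Npr3*, *Oxtr* and *Ptger3*, receptors for noradrenaline, natriuretic peptides, oxytocin and prostaglandin E2. *Ednra* and *Ptgir* and all 4 lower genes were not called by DESeq2. Without the nucleus richest in contractile UMIs 3 of 28 genes tested were higher, and with the adipocyte limit of 5 the count was 2 of 27.

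Of 15 Notch pathway genes tested other than *Notch3*, 5 were higher and 10 were not called, and the median was 0.69, or 0.83 without *Dll1*, for which no fold could be given. *Heyl*, a transcriptional repressor induced by Notch, had 167 and 119 CPM against 3.32 and 2.18 (5.33 ± 0.82). The related targets *Hes1* and *Hey2* had 119 and 37.1 against 7.24 and 3.47 (3.26), and 47.6 and 11.1 against 0.594 and 1.51 (3.45), the latter from 2 and 3 UMIs. *Nrarp*, a target that feeds back on the pathway, and *Maml3*, a coactivator, made up the 5. The receptors *Notch1* and *Notch2* and the ligand *Jag1* were not called. Without the nucleus richest in contractile UMIs, 2 of 14 genes tested were higher and the median was −0.08, and 2 of 14 were also higher with the adipocyte limit of 5. After thinning to 1000 UMIs a nucleus, 1 of 12 was higher, with a median of −0.41.

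Transcription factors of smooth muscle and pericytes gave 7 higher genes and no lower one among 25 tested, with a median of 1.15. *Myocd*, the coactivator that switches on smooth muscle genes with serum response factor, had 71.4 and 211 CPM against 5.58 and 6.82 (4.25 ± 0.75), while *Srf* itself had 0 and 18.5 against 10.3 and 7.28 and was not called. *Tbx2* and *Tbx18*, T-box factors of mural lineages, had 95.2 and 55.6 against 4.15 and 2.68 (4.05), and 71.4 and 85.3 against 8.07 and 7.51 (3.05). The others were *Heyl*, *Hey2*, *Nr2f2* and *Mef2c*, the last at 190 and 267 but at 419 and 415 in endothelial-gated nuclei. Without the nucleus richest in contractile UMIs 4 of 24 were higher, and with the adipocyte limit of 5 2 of 23.

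Growth factors of the vessel wall and their receptors were split. In the list of PDGF, angiopoietin and TGF-beta genes, 7 of 30 were higher, 1 was lower and 22 were not called, and the median was −0.10. Besides *Pdgfrb*, the higher genes included *Bmp5*, a bone morphogenetic protein (238 and 70.4 CPM against 5.58 and 9.79, 3.49 ± 0.77), *Angpt2*, an angiopoietin that loosens vessels, *Pdgfa*, *Tgfb3* and *Ltbp1*, which holds TGF-beta in the matrix and stood at 238 and 341 but at 686 and 644 in FAP-gated nuclei. *Vegfa*, the vascular growth factor, was lower at 238 and 137 against 807 and 735 (−2.56 ± 0.45). Without the nucleus richest in contractile UMIs, *Pdgfa*, *Tgfb3* and *Ltbp1* were not called, and with the adipocyte limit of 5 1 of 30 genes was higher. *Pdgfra*, the receptor of FAPs, had 0 and 2 UMIs in mural nuclei.

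Matrix genes were mostly not called in this comparison. In the basement membrane list 4 of 28 were higher, 2 lower and 22 not called, with a median of 0.67. *Itga1*, a collagen and laminin receptor subunit, had 619 and 467 CPM against 39.6 and 42.1 (3.27 ± 0.46), and *Sparcl1*, a secreted matrix glycoprotein, 1214 and 526 against 66.0 and 37.8 (3.55 ± 0.44). *Vtn* and *Lama5* were the others, and *Col15a1* and *Lama4* were lower. DESeq2 called none of *Lama5*, *Col15a1* and *Lama4*. Of 22 fibrillar matrix genes 4 were higher, *Postn*, *Col5a2*, *Col6a3* and *Eln*, and 18 were not called (median 0.10, or −0.53 after thinning). Only *Postn* was called by DESeq2. *Col5a2* and *Col6a3* had higher levels in FAP-gated nuclei of both libraries, but *Col6a3* is a gene by which those nuclei were chosen. With the adipocyte limit of 5, 1 gene of each of these 2 lists was higher.

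Genes known from uterine and gut muscle were examined because gonadal fat lies next to the reproductive tract. Of 14 tested, 5 were higher, *Actg2*, *Des*, *Myocd*, *Ckb* and *Pgr*, 1 was lower, *Oxtr*, and 8 were not called, with a median of 1.03. *Actg2* and *Des* are also counted in the contractile apparatus list and *Myocd* among the transcription factors. *Actg2*, the actin of enteric smooth muscle, had 47.6 and 85.3 CPM against 4.15 and 3.22 (4.09 ± 0.83). *Pgr*, the progesterone receptor, had 24 UMIs in replicate 2 and none in replicate 1, and was not called by DESeq2. The higher genes numbered 3 without the nucleus richest in contractile UMIs and 1 with the adipocyte limit of 5.

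**Figure D2:**
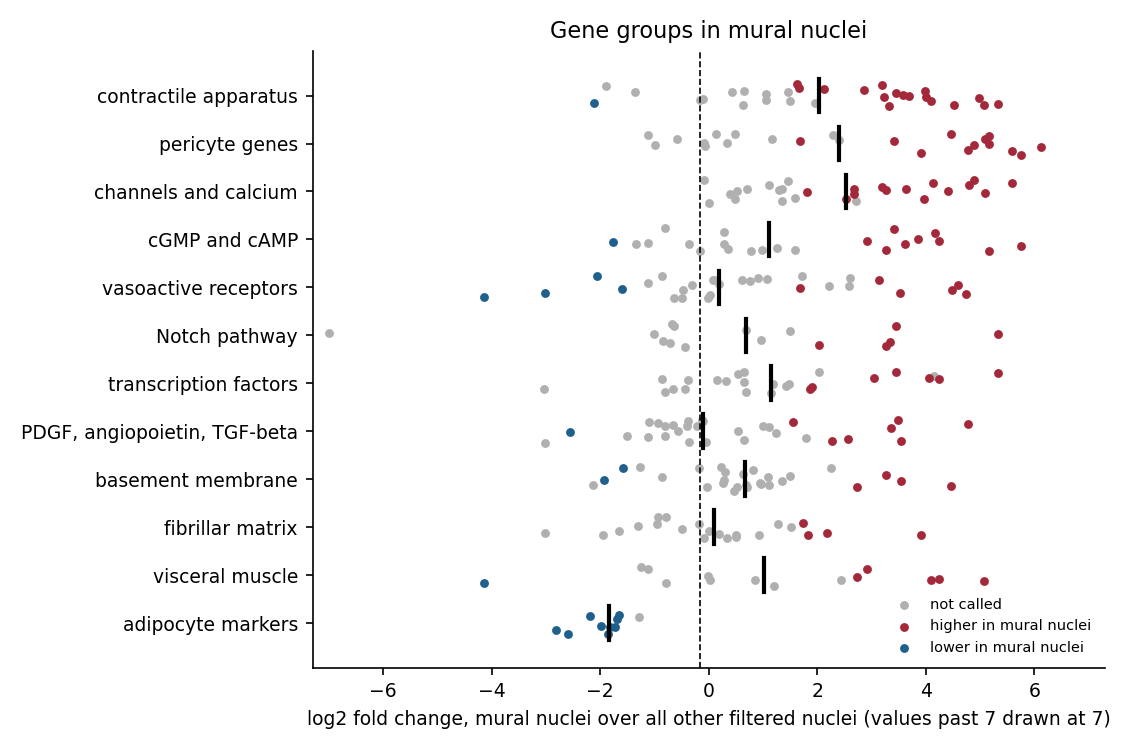
Log2 fold changes of the genes of each group, mural nuclei over all other filtered nuclei, 1 point a gene, red where called higher, blue where called lower and grey where not called. Short bars are the group medians and the dashed line the median of all 16907 genes, −0.15. Contractile apparatus, pericyte and channel genes lie to the right with medians of 2.04, 2.40 and 2.53, and adipocyte markers to the left at −1.84.

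RNA of other cell types was present in mural nuclei to different degrees. All 12 adipocyte markers were detected in both libraries, with a sum of 20062 CPM in replicate 1, where *Scd1* was the most abundant, and 8353 in replicate 2, where *Ghr* was. In adipocyte-gated nuclei the sum was 55037 and 54804, and in endothelial-gated nuclei, which also have fewer than 10 adipocyte UMIs, 9220 and 8259. The mural nuclei of replicate 1 thus carried more adipocyte RNA than those of replicate 2. Against all other nuclei 9 of 10 tested adipocyte markers were lower and *Adipoq* was not called (median −1.84). This direction follows from the limit on adipocyte UMIs in the rule and from the adipocyte-gated nuclei among the others. The part of adipocyte RNA in the results was not tested. The limit of 5 adipocyte UMIs lowered the higher calls of each group of genes, but it also leaves 11 nuclei in replicate 1, without the one richest in contractile UMIs. Under it the median log2 fold change went from 2.40 to 2.01 for pericyte genes, from 2.53 to 1.91 for channel genes, from 2.04 to 1.56 for the contractile apparatus and from 1.12 to 0.89 for the cGMP and cAMP list. It went from 0.69 to 0.04 for Notch genes, from 1.15 to 0.57 for transcription factors, from −0.10 to −0.51 for the PDGF, angiopoietin and TGF-beta list and from 0.67 to 0.43 for basement membrane genes. It went from 1.03 to 0.86 for visceral muscle genes and from 0.19 to 0.27 for vasoactive receptors, and was 0.10 both times for fibrillar matrix genes.

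Markers of the remaining types were lower in sum. The rule allowed a mural nucleus at most 1 UMI of *Upk3b*, *Msln*, *Ptprb*, *Pecam1* and *Cybb*. Low levels of these genes follow from it, and it limits the mesothelial, endothelial and immune sums. FAP markers gave 738 and 1806 CPM, with *Dcn* the most abundant, 6 and 10 of 10 genes detected, and *Pdgfra*, *Bmper*, *Lum* and *Dclk1* at 0 in replicate 1. Mesothelial markers gave 238 and 549, with 6 and 9 of 10 detected, *Upk3b* leading in replicate 1 and *Wt1* in replicate 2. *Msln* was at 0 in both, and *Wt1*, *Bnc1* and *Krt19* in replicate 1. Endothelial markers gave 357 and 237, with 7 and 10 of 10 detected, *Emcn* and *Flt1* leading, and *Cdh5*, *Egfl7* and *Tie1* at 0 in replicate 1. The level of each of these lists was below that of the adipocyte markers. Immune markers gave 333 and 204, with 7 and 9 of 13 detected, *Lyz2* and *Skap1* leading, and *Cybb*, *Cd3e* and *Cd79b* at 0 in both.

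Lymphatic markers gave 71.4 and 81.6 CPM (2 and 5 of 6 detected, *Reln* leading, *Ccl21a* at 0 in both). Schwann cell markers gave 143 and 267 (3 and 8 of 8, *Scn7a* leading), skeletal muscle markers 95.2 and 100 (2 and 6 of 9, *Ttn* and *Neb* leading, *Myh4*, *Myh2* and *Tnnt3* at 0 in both), and epithelial markers 0 and 22.2 (0 and 3 of 8, *Epcam* at 0 in both). Against all other nuclei, none of the mesothelial (median −0.99), endothelial (−0.59), lymphatic (0.20), skeletal muscle (0.33) and epithelial (−0.47) markers tested was called by edgeR. *Col6a3* was the only FAP marker called higher (list median −0.50), *Kit* and *Lyz2* were lower among immune markers (−1.42) and *Scn7a* among Schwann cell markers (0.46). With the members that passed another gate moved to the other nuclei, 102 of 110 named calls stayed the same, 7 were no longer called and 1 was not tested. Contractile apparatus genes then gave 17 higher of 30, pericyte genes 11 of 22 and channel genes 14 of 27. The part of these types below the gates was not tested.

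The share of nuclei with a UMI was compared after thinning every nucleus to 1000 UMIs, beside adipocyte-gated and immune-gated nuclei as a measure of background. Nuclei of every gated class also had fewer than 4 UMIs of the 10 mural genes. *Cacna1c* was detected in 56.5% of mural nuclei in replicate 1 (exact Clopper-Pearson 95% interval 34.5 to 76.8%) and 69.2% in replicate 2 (60.1 to 77.3%), against 2.36% and 3.41% of adipocyte-gated and 5.17% and 8.22% of immune-gated nuclei. *Prkg1* was detected in 65.2% and 81.7%, against 4.04% and 4.90% of adipocyte-gated and 6.90% and 15.7% of immune-gated nuclei. Both genes were found in most mural nuclei. *Pdgfrb* was detected in 47.8% and 24.2%, *Agtr1a* in 34.8% and 28.3%, and *Abcc9* in 39.1% and 32.5%, and in adipocyte-gated nuclei these 3 stayed between 0.305% and 0.980%, and in immune-gated nuclei between 0% and 2.22%. Before thinning, the median depth was 2814 and 4914.5 UMIs in adipocyte-gated and 1671 and 1878 in immune-gated nuclei. For these 5 genes the shares in mural nuclei were above both backgrounds in each library.

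**Figure D3:**
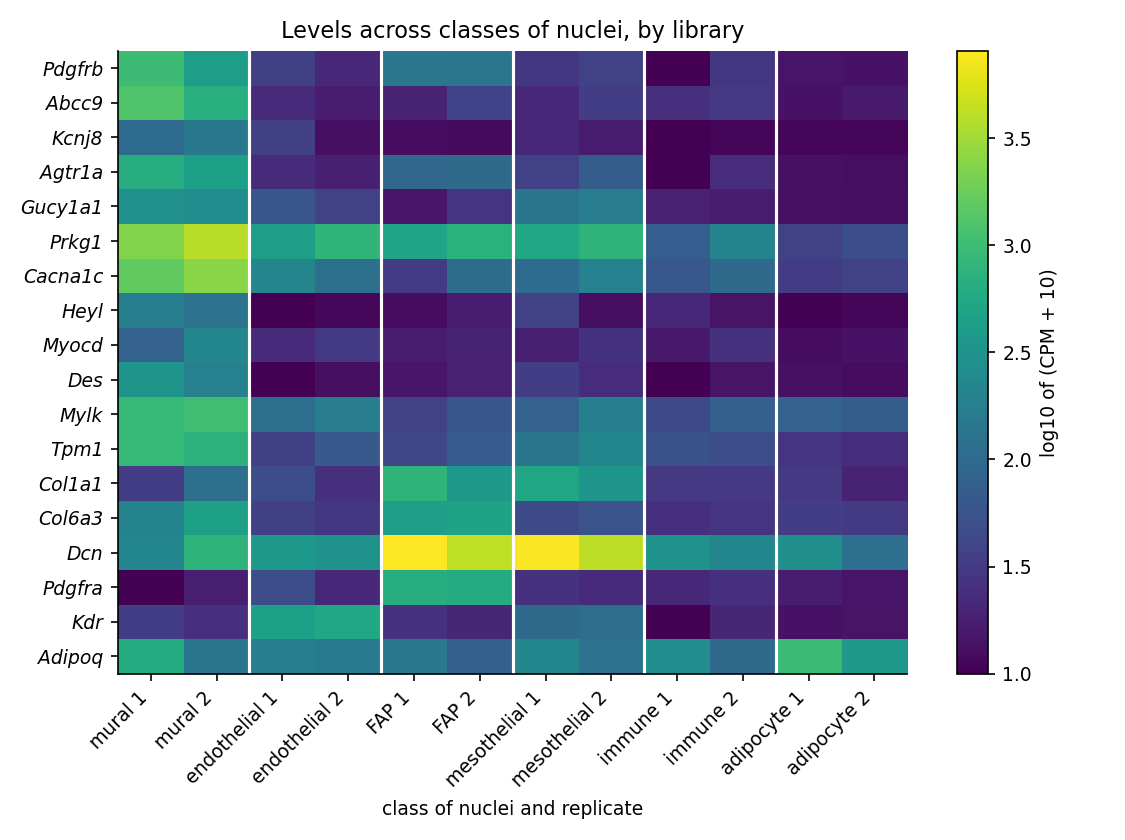
Levels of 18 genes in 6 classes of nuclei, as the log10 of CPM plus 10, with replicates 1 and 2 of each class side by side. *Pdgfrb*, *Abcc9*, *Agtr1a* and *Cacna1c* are brightest in the mural columns, *Dcn* in the FAP and mesothelial columns, and *Adipoq* in the adipocyte columns and the mural column of replicate 1.

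Against endothelial nuclei, the other cells of the vessel wall, mural nuclei were higher in many contractile, pericyte and fibrillar matrix genes and lower in several Notch ligands and receptors. Endothelial-gated nuclei had at least 4 UMIs of *Ptprb*, *Pecam1*, *Flt1*, *Cdh5*, *Emcn*, *Egfl7* and *Cyyr1* and passed no other gate. They also had fewer than 4 UMIs of the 10 mural genes, and numbered 49 in replicate 1 and 351 in replicate 2. This limit keeps nuclei rich in mural genes out of the endothelial side, and so favours genes of mural cells as higher in mural nuclei. Mural nuclei could pass another gate, and 18 of replicate 2 passed that of FAPs. The comparisons with endothelial nuclei and FAPs were not run without such members. Of 12109 genes tested, 450 (3.72%) were higher and 550 (4.54%) lower in mural nuclei, with a median log2 fold change of −0.07. The fit had a term for the library, since both sums of a library come from 1 animal. Without this block the counts were 205 and 305, with a mitochondrial limit of 5% they were 241 and 326, and DESeq2 gave 297 higher genes. The 5% limit left 12 mural and 15 endothelial-gated nuclei in replicate 1.

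The genes chosen by the largest differences from endothelial nuclei again included *Abcc9*, at 1261 and 660 CPM against 12.7 and 6.57 (log2 fold change 6.80 ± 0.54; edgeR, Benjamini-Hochberg adjusted p = 1.7e-32), and *Agtr1a*, at 643 and 423 against 12.7 and 8.21 (5.69 ± 0.55). *Rspo3*, a secreted amplifier of Wnt signalling, had 95.2 and 482 against 0 and 8.21 (5.68 ± 0.63). *Rasl11a*, a small GTPase gene, had 3 and 11 UMIs in mural and none in endothelial nuclei, at least 10.3-fold higher. *Aspn*, *Heyl*, *Des* and *Slc38a11*, an amino acid transporter gene, completed the 8, with 3, 1, 2 and 2 UMIs in endothelial nuclei. These genes were near absent from endothelial nuclei of both libraries. The 8 genes at the other end had no mural UMI, and ran from at least 24.2-fold lower for *Dipk2b* to at least 11.3-fold lower for *Tnfsf10*, a death receptor ligand. Between them were *Ccm2l*, *Robo4* and *Sema3g*, genes of vessel formation and guidance, *Car4*, a capillary carbonic anhydrase, the kinase *Plk2* and the oxygenase *Cyp1a1*.

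By group, 20 of 28 contractile apparatus genes were higher than in endothelial nuclei and none lower (median 1.71). Of pericyte genes 14 of 20 were higher with *Ednrb* lower (3.24), and of channel and calcium genes 16 of 27 were higher (2.33). Without the library block, in the same order, 13 of 28, 11 of 20 and 11 of 27 were higher. With the mitochondrial limit of 5% the counts were 13 of 26, 11 of 19 and 12 of 25. No pericyte gene was lower under either setting, nor by DESeq2. *Pdgfrb* stood at 976 and 412 CPM against 25.4 and 11.5 (5.25 ± 0.50), while its ligand *Pdgfb* had 23.8 and 7.42 in mural and 190 and 231 in endothelial nuclei. The receptor was on the mural side and the ligand on the endothelial side. In the PDGF, angiopoietin and TGF-beta list 7 of 29 genes were higher and 7 lower (−0.05). Its higher genes numbered 3 without the library block and 4 with the mitochondrial limit of 5%. *Angpt1*, the ligand of the endothelial receptor Tie2, was higher at 167 and 171 against 50.7 and 55.8 (1.61 ± 0.45), and *Tek*, which encodes Tie2, lower at 0 and 29.7 against 317 and 466 (−4.11 ± 0.49).

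Of 15 Notch pathway genes, *Heyl* and *Notch2* were higher and *Notch1*, *Notch4*, *Dll1*, *Dll4*, *Jag2* and *Hey1* lower than in endothelial nuclei, with a median of −0.33. *Notch1* had 119 and 14.8 CPM against 228 and 171 (−2.60 ± 0.54), *Dll4*, a ligand of arterial endothelium, had 1 mural UMI and *Dll1* none. *Jag1*, at 357 and 193 against 292 and 121, was not called. Apart from *Jag1*, the ligands of this list were thus on the endothelial side.

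Other groups moved in part. In the cGMP and cAMP list 11 of 22 genes were higher and 3 lower than in endothelial nuclei (median 1.49). Vasoactive receptors gave 5 higher and 5 lower of 27 (−0.62), among the latter *Calcrl*, a receptor of adrenomedullin, at 47.6 and 59.3 CPM against 203 and 363 (−2.50 ± 0.44). Without the library block 3 receptors were higher and 1 lower. By DESeq2 the counts were 4 and 2, and with the mitochondrial limit of 5% they were 4 and 1 of 22. Transcription factors gave 9 higher and 2 lower of 22 (1.03), with *Meis1* at 452 and 823 against 101 and 91.9 (2.81 ± 0.36). Basement membrane genes gave 5 higher and 1 lower of 27 (0.27). Without the library block, and also with the mitochondrial limit of 5%, 1 was higher and none lower. Fibrillar matrix genes gave 11 higher and 2 lower of 22 (1.26), with *Col6a1*, a collagen VI chain, at 214 and 200 against 12.7 and 24.6 (2.98 ± 0.47). Of the 11, *Col6a3* and *Dpp4* are genes of the FAP gate, which endothelial-gated nuclei had to fail. Visceral muscle genes gave 7 higher and 1 lower of 14 (2.16), or 4 higher and none lower without the library block. Among markers of other types, *Acaca* of the adipocyte list, *Wt1* of the mesothelial list and 3 of 10 FAP markers, *Abca8a*, *Col6a3* and *Dpp4*, were higher in mural nuclei. These 3 FAP markers belong to the FAP gate, which endothelial-gated nuclei had to fail and mural nuclei did not. The gate thus favours their direction. *Acaca* had no such difference without *Mcam* and *Cspg4* in the rule, at a log2 fold change of −0.245.

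Against FAPs, the other mesenchymal cells of the tissue, mural nuclei were higher in contractile and channel genes. FAP-gated nuclei had at least 4 UMIs of *Pdgfra*, *Fbn1*, *Dpp4*, *Pi16*, *Col6a3* and *Abca8a* and passed no other gate. They also had fewer than 4 UMIs of the 10 mural genes, which again favours genes of mural cells as higher in mural nuclei. They numbered 196 in replicate 1 and 929 in replicate 2. Of 12108 genes tested, 394 (3.25%) were higher and 629 (5.19%) lower in mural nuclei, with a median of −0.17. Without the library block the counts were 227 and 341, with a mitochondrial limit of 5% they were 219 and 354, and DESeq2 gave 383 lower genes. The 5% limit left 12 mural and 87 FAP-gated nuclei in replicate 1. Both class comparisons share the mural sums, and 174 genes were higher in both, 38.7% of the 450 and 44.2% of the 394.

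Of the genes chosen by the largest differences from FAPs, *Gja4* had 6 and 12 UMIs in mural nuclei and none in FAPs, at least 50.1-fold higher. *Kcnj8* had 95.2 and 141 CPM against 2.42 and 2.29 (5.52 ± 0.86), *Tmem273*, a membrane protein gene, 95.2 and 108 against 2.42 and 1.37 (5.80 ± 0.91), and *Cyp4b1*, a cytochrome P450, 214 and 304 against 4.85 and 6.40 (5.35 ± 0.49). *Tpm2*, a tropomyosin, had 238 and 226 against 2.42 and 5.94 (5.22 ± 0.58), and *Myom1*, a protein that links myosin filaments, 286 and 578 against 9.69 and 12.8 (5.17 ± 0.45). *Rgs4* and *Ndufa4l2* had 1 and 3 UMIs in FAPs. The 8 genes at the other end had no mural UMI. They ran from at least 11.9-fold lower for *Qpct*, glutaminyl cyclase, to at least 3.68-fold lower for the Wnt ligand *Wnt10b*, with *Tmem158*, the chemokine scavenger *Ackr2*, the lipocalin *Apod*, the protease *Mmp19*, the sulfatase *Arsj* and *Larp6*, which binds collagen messages, between them.

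Of 17 fibrillar matrix genes tested, 12 were lower in mural nuclei than in FAPs and none was higher, with a median of −2.07. The FAP gate favours this outcome, since 5 of its 6 genes, *Pdgfra*, *Fbn1*, *Dpp4*, *Pi16* and *Col6a3*, belong to the same list and were left out of the test. *Col1a1*, a chain of collagen I, had 23.8 and 108 CPM against 768 and 349 (−2.51 ± 0.36), *Col3a1* had 357 and 426 against 1570 and 1137 (−2.07 ± 0.32), and *Dcn*, decorin, 214 and 775 against 8089 and 4280 (−3.45 ± 0.34). *Eln*, elastin, *Postn*, *Col5a2* and *Mgp* were among the 5 not called. The basement membrane list gave 3 higher and 7 lower of 27 (0.18), or 3 and 4 without the library block. *Itga1* was higher at 619 and 467 against 4.85 and 19.2 (4.79 ± 0.38) and *Lama5* at 95.2 and 89.0 against 7.27 and 4.11 (4.01 ± 0.66), whereas *Lama2*, a laminin chain of the stroma, was lower at 47.6 and 252 against 921 and 1037 (−2.78 ± 0.33).

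The contractile apparatus gave 21 higher genes and no lower one of 28 against FAPs (median 2.12), and channels and calcium 17 higher and none lower of 27 (2.22). With the mitochondrial limit of 5% the higher genes of these lists were 13 of 26 and 13 of 25. Without the library block they were 18 of 28 and 12 of 27. *Mylk* stood at 881 and 1034 CPM against 26.7 and 48.0 (4.33 ± 0.33), and *Cacna1c* at 1571 and 2477 against 21.8 and 96.4 (4.71 ± 0.32). Of 20 pericyte genes 11 were higher, and *Anpep* and *Ebf2*, the latter a transcription factor of adipocyte progenitors, were lower (2.04). *Pdgfrb* was higher at 976 and 412 against 131 and 128, yet by a smaller step than against endothelial nuclei (1.87 ± 0.32), a difference between comparisons that was not tested. The cGMP and cAMP list gave 11 higher and none lower of 22 (1.02), vasoactive receptors 5 and 4 of 27 (0.88), Notch genes 3 and 1 of 15 (0.21) and transcription factors 5 and 2 of 22 (0.40), with *Klf4* at 1 mural UMI. In the cGMP and cAMP list 6 genes were higher without the library block, and 6 with the mitochondrial limit of 5%. Vasoactive receptors gave 3 and 1 without the block, and 2 and 1 of 22 with the 5% limit. The PDGF, angiopoietin and TGF-beta list gave 5 and 6 of 29 (0.11), or 4 and 3 without the library block. Visceral muscle genes gave 4 and 3 of 14 (−0.08). *Acaca*, *Adipoq*, *Lep* and *Pparg* of the adipocyte markers were higher than in FAPs, as were *Muc16* and *Emcn*. The direction of *Emcn* is favoured by the endothelial gate, to which it belongs and which FAP-gated nuclei had to fail. Without *Mcam* and *Cspg4* in the rule the log2 fold change of *Acaca* was −0.153.

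Among themselves, the mural nuclei fell along a range from contractile-rich to contractile-poor. Each nucleus was placed by the share of the 6 contractile genes in its UMIs of the 10 mural genes, and those with a share of at least 0.5 were called contractile-rich. They were 6 of 23 in replicate 1 (26.1%, exact Clopper-Pearson 95% interval 10.2 to 48.4%) and 55 of 120 in replicate 2 (45.8%, 36.7 to 55.2%). Nuclei with no contractile UMI numbered 11 and 26, nuclei with contractile UMIs alone 2 and 21, and those with a share between 0.4 and 0.6 numbered 1 and 12. Both ends were thus occupied and few nuclei lay in the middle, at a median of 8 and 9 mural UMIs per nucleus. The median depth of contractile-rich and contractile-poor nuclei was 1440 and 1741 UMIs in replicate 1, and 2576 and 1922 in replicate 2. Their median mitochondrial share was 7.39% and 4.32% in replicate 1, and 0.543% and 0.566% in replicate 2. The part of depth and mitochondrial RNA in the split was not tested. Among the nuclei with no contractile UMI, 6 in replicate 1 and 5 in replicate 2 were members by *Mcam* and *Cspg4* alone. The split places these nuclei at the contractile-poor end by its definition, and it was not repeated without these 2 genes. Since replicate 1 had fewer than 10 contractile-rich nuclei, no test was run, and levels with exact Poisson 95% intervals are given for replicate 2 beside the level in replicate 1.

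**Figure D4:**
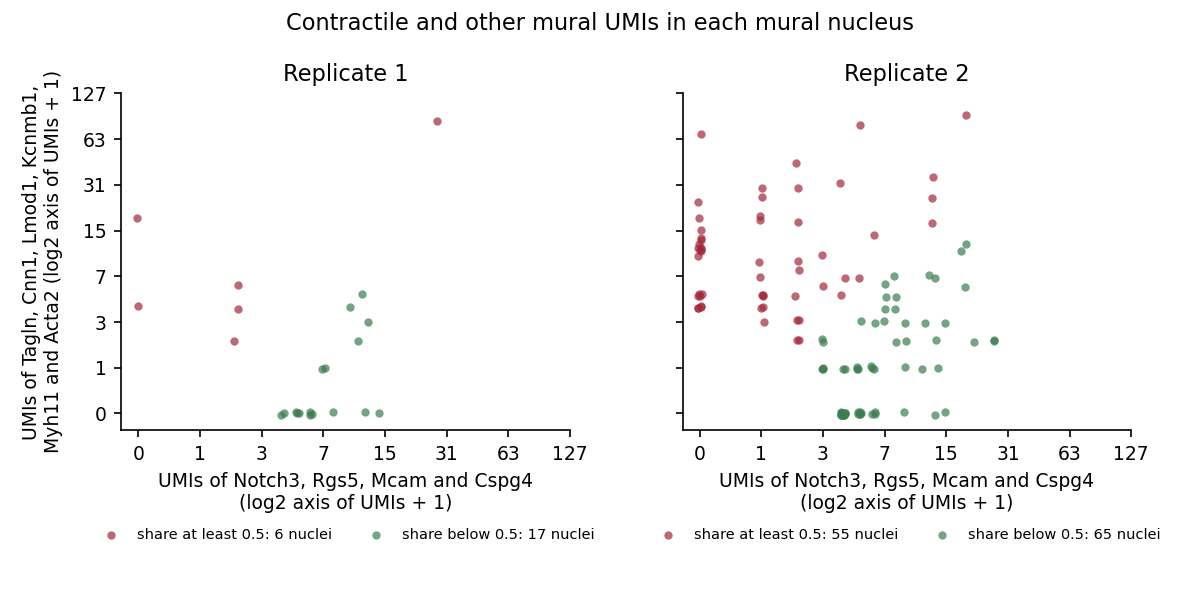
UMIs of the contractile genes against UMIs of *Notch3*, *Rgs5*, *Mcam* and *Cspg4* in each mural nucleus, on log2 axes of UMIs plus 1, with points spread slightly for visibility. Red marks a contractile share of at least 0.5 (6 and 55 nuclei) and green a lower share (17 and 65). The single nucleus at 83 contractile UMIs stands out in replicate 1.

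Of 2580 genes with enough UMIs to be ranked, 649 (25.2%) had more CPM in contractile-rich nuclei in both libraries and 758 (29.4%) more in contractile-poor nuclei in both. The contractile apparatus list, none of whose genes chose the nuclei, had 20 of 24 ranked genes higher in contractile-rich nuclei in both libraries and none in contractile-poor ones. Some rest on 1 contractile-rich nucleus in replicate 1, as *Sorbs2* (14 UMIs), *Myl9* (9), *Pdlim7* (5) and *Synm* (4) do. The list was not counted without the nucleus richest in contractile UMIs. *Mylk* stood at 1517 CPM in the contractile-rich nuclei of replicate 2 (1323 to 1732) and 479 in the contractile-poor (365 to 616), and at 2350 and 299 in replicate 1. *Smtn*, smoothelin, stood at 803 against 39.9 and at 671 against 0. *Myocd* had 360 (269 to 472) against 39.9 (13.0 to 93.1), and 252 against 0 in replicate 1 from 3 UMIs. Genes of contraction outside the rule thus followed the contractile genes inside it.

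The pericyte list went the other way, with 12 of 14 ranked genes higher in contractile-poor nuclei in both libraries and none in contractile-rich nuclei. *Abcc9* had 1189 CPM in the contractile-poor nuclei of replicate 2 (1006 to 1396) and 201 in the contractile-rich (135 to 288), and 1661 and 252 in replicate 1. *Kcnj8* had 287 (201 to 398) against 13.9 (1.68 to 50.0), and 99.7 against 83.9 in replicate 1, from 3 UMIs and 1. *Pdgfrb* had 686 against 173, and 1129 against 587. *Ebf1* had 3630 against 997, and 2724 against 923. The pericyte genes therefore lay with *Notch3* and *Rgs5* at the contractile-poor end. That end also holds the 6 and 5 members chosen by *Mcam* and *Cspg4* alone, whose part was not tested. Adipocyte markers also summed higher at the contractile-poor end in both libraries. In adipocyte-gated nuclei *Ebf1* stood at 1692 and 2216 and *Art3*, of the same list, at 508 and 499, but *Abcc9* at 3.79 and 6.33. The part of adipocyte RNA in this direction was not tested. All 4 ranked vasoactive receptors also lay there, *Agtr1a* at 710 (570 to 874) against 173 (112 to 256), and at 797 against 252 in replicate 1.

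The 8 genes chosen by the highest ratios for each end came from the ranked genes outside the rule. At the contractile-rich end the highest ratio was that of *Rspo3*, with 893 CPM in replicate 2 (746 to 1062) against 7.98 (0.202 to 44.5), from 23 nuclei, and 336 against 0 in replicate 1. *Pcdh7*, a protocadherin, had 2854 against 95.7, and 755 against 66.4 in replicate 1. *Slc8a1*, the sodium-calcium exchanger, had 3200 against 152, and 671 against 99.7. The others were *Ryr3*, a release channel of the calcium store (1184 against 79.8), the muscle protein *Pdlim3* (713 against 31.9), *Smtn*, the guidance factor *Sema3a* (956 against 55.8) and the potassium channel *Kcnn2* (339 against 23.9).

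At the contractile-poor end stood *Kcnj8* together with *Tmem273* (223 CPM against 6.93 in replicate 2), the cytoskeletal protein *Nav3* (287 against 13.9), the copper protein ceruloplasmin *Cp* (367 against 20.8), *Eps8*, an actin regulator (654 against 69.3), *Mfge8*, a secreted glycoprotein (335 against 41.6), the protocadherin *Pcdh19* (543 against 62.3) and *Gipr* (183 against 20.8). In replicate 1 the same direction held for each of the 16, which the choice required, from at most 14 UMIs a gene at either end. *Gipr* had 199 against 83.9 from 6 UMIs and 1. At the contractile-rich and contractile-poor ends, *Sema3a* had 1 UMI and 1, *Kcnn2* 2 and 0, from 1 nucleus, *Ryr3* 3 and 0, and *Cp* 0 and 3. *Kcnq5*, at 2003 against 422 in replicate 2 and 3023 against 252 in replicate 1, was another potassium channel of the contractile-poor nuclei.

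**Figure D5:**
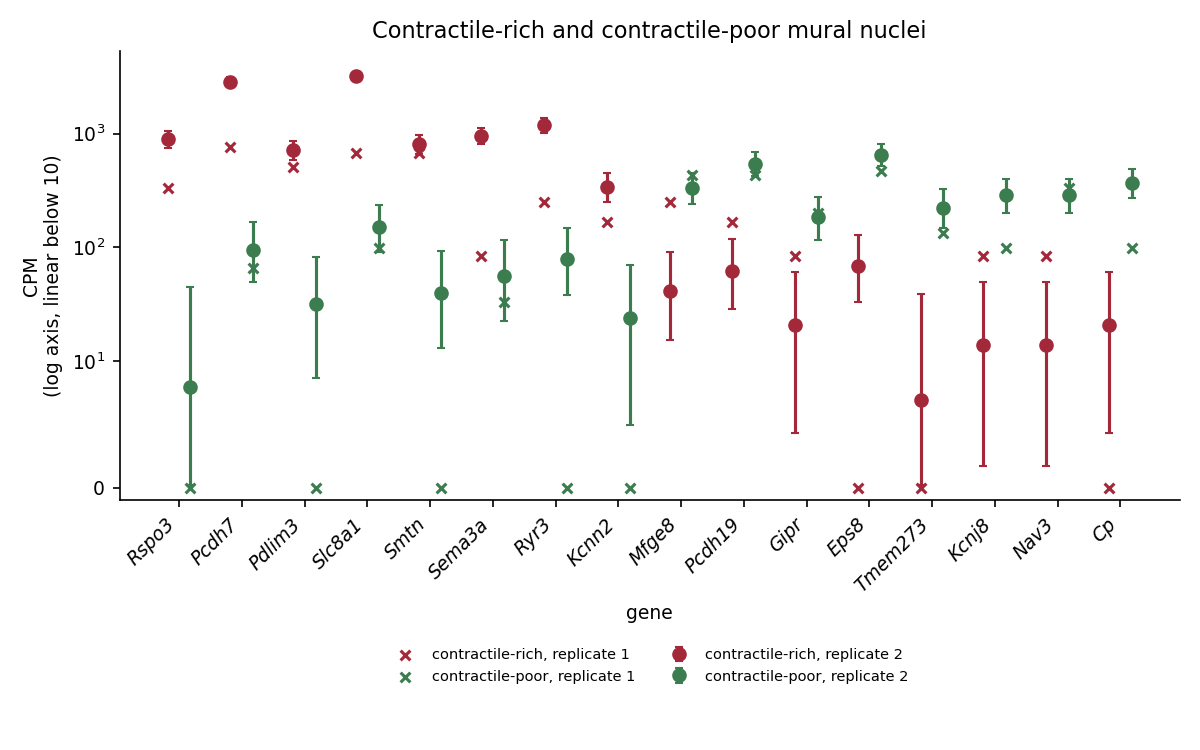
Levels in contractile-rich (red) and contractile-poor (green) mural nuclei of the 16 genes chosen by the highest ratios, in CPM on an axis that is logarithmic above 10 and linear below. Circles are replicate 2 with exact Poisson 95% intervals and crosses replicate 1. *Rspo3* stands at 893 against 7.98 and *Kcnj8* at 13.9 against 287 in replicate 2.

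Other groups had genes at both ends, which was not tested. Over all ranked genes, 25.2% were higher in both libraries at the contractile-rich and 29.4% at the contractile-poor end. Some counts, such as those of basement membrane genes, lay near these shares. Channel and calcium genes had 8 of 20 ranked genes higher at each end, cGMP and cAMP genes 4 of 17 at the contractile-rich and 6 at the contractile-poor end, and transcription factors 7 and 5 of 14. *Cacna1c* had 2964 CPM in contractile-rich and 1915 in contractile-poor nuclei of replicate 2, and 1343 and 1661 in replicate 1, and so was present at both ends with no shared direction. In replicate 2 *Meis2* and *Meis1*, homeobox factors, were higher at the contractile-rich end, at 2687 against 431 and at 1371 against 191. In replicate 1 *Meis2* stood at 503 against 399, from 6 and 12 UMIs. *Heyl* had 199 in contractile-poor and 48.5 in contractile-rich nuclei of replicate 2. Notch genes had 1 of 6 at each end, PDGF, angiopoietin and TGF-beta genes 4 and 3 of 10, basement membrane genes 5 and 6 of 20, and fibrillar matrix genes 5 and 7 of 15.

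Visceral muscle genes had 5 of 7 ranked genes higher in contractile-rich nuclei in both libraries and 1 in contractile-poor nuclei. Of the 5, *Actg2* and *Des* are also in the contractile apparatus list and *Myocd* is given above, so this count partly repeats those results. In replicate 2 *Pgr* had 24 UMIs, all in 14 contractile-rich nuclei, and none in the 65 contractile-poor ones, and *Esr1*, the estrogen receptor, had 1302 CPM (1123 to 1502) against 295 (208 to 407). In replicate 1 *Pgr* had no UMI and *Esr1* had 252 against 266. *Wt1*, a mesothelial marker, had 492 (384 to 620) against 47.9 (17.6 to 104) in replicate 2 and no UMI in the mural nuclei of replicate 1. These 3 differences were therefore seen in replicate 2 alone.

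Markers of other types also differed between the ends. All 8 ranked adipocyte markers were higher in contractile-poor nuclei in both libraries, and the sum of the 12 adipocyte markers was 24949 against 7720 CPM in replicate 1 and 11010 against 6046 in replicate 2. Mesothelial markers summed to 252 CPM in contractile-rich and 233 in contractile-poor nuclei of replicate 1, and to 852 and 199 in replicate 2. FAP markers summed to 1175 and 565 in replicate 1 and to 2168 and 1388 in replicate 2. In replicate 2, 10 of the 55 contractile-rich nuclei but 1 of the 65 contractile-poor nuclei passed the mesothelial gate. *Dcn* had 1136 against 359 in replicate 2 and 420 against 133 in replicate 1. The part of these types in the split was not tested. Without the nucleus of replicate 1 richest in contractile UMIs, 556 of 2468 genes were higher at the contractile-rich and 778 at the contractile-poor end.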

How the data were processed

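CeleScope was used by the authors for alignment to GRCm39. The deposited matrices give raw UMI counts of 56980 genes for the nuclei that the authors called. Gene identifiers were matched to GENCODE vM39. UMIs were summed per library and set of nuclei and tested with edgeR 4.0.16 in R 4.3.3 (quasi-likelihood F test, robust, TMM, filterByExpr, a library term, Benjamini-Hochberg adjustment over all genes tested). Without the library term, all other nuclei gave 480 higher and 296 lower genes. The classes shared 1 fit. DESeq2 1.42.0 was the alternative, and the pipeline was tested on simulated data. Sums and intervals used Python 3.11.15, numpy 2.4.6, scipy 1.17.1 and pandas 2.3.3, and figures matplotlib 3.10.9. Levels in CPM are taken over the summed nuclei.

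The members and gene lists were chosen with earlier results of these data known. Named genes are those of the rule, any gene of a list beside its list's count, and the called genes with the largest fold changes, 15 up and 10 down for all other nuclei and 8 each way for the classes, with at least 10 UMIs over both libraries and 2 in each where higher, gene models without a name left out. For the split, named genes are the 8 with the highest ratios for each end in replicate 2, against a floor of 3 UMIs, that had the same direction in replicate 1. This last rule was chosen after seeing the data, as were *Itga1*, *Dcn* and other examples within a list. Alternatives added after seeing the data were the rule without *Mcam* and *Cspg4*, members passing another gate moved out, and the nucleus of replicate 1 richest in contractile UMIs left out.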

Additional observations from a re-analysis of the deposited data

How the results depend on the processing

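The share of mural nuclei, 0.897%, was 1.02% with a mitochondrial limit of 5%, 1.56% and 0.601% with at least 3 or 6 mural UMIs, 0.619% with fewer than 5 adipocyte UMIs, 0.678% without *Mcam* and *Cspg4*, 0.751% without members passing another gate, and 0.812 to 0.982% when either replicate was left out. With the rule applied to nuclei thinned to 1000 UMIs it was 0.805%, from 0.882% in replicate 1 and 0.728% in replicate 2. Replicate 1 also had the higher share with the 5% limit, 1.05% against 0.994%. Against all other nuclei, 340 higher and 317 lower genes became 192 and 20 by DESeq2, 200 and 122 with the 5% limit, 84 and 72 with fewer than 5 adipocyte UMIs and 110 and 65 after thinning. Lower genes were 209 without TMM factors, where higher genes were 495 and the median of all genes moved from −0.15 to 0.17. Higher genes were 225 without the nucleus richest in contractile UMIs. Leaving out either replicate, genes of these calls past a log2 of 1 in the other numbered 338 to 340 higher and 203 to 306 lower. No fit was run on 1 replicate, and the choice of genes called with both replicates favours high counts here. Against endothelial nuclei, 450 and 550 became 205 and 305 without the library block and 241 and 326 with the 5% limit, and DESeq2 gave 297 higher. Against FAPs, 394 and 629 became 227 and 341, and 219 and 354, and DESeq2 gave 383 lower. *Acaca* reversed to −0.245 and −0.153 without *Mcam* and *Cspg4*. No other named or listed call reversed under any alternative run. The cause was not tested. The adipocyte limit leaves 11 mural nuclei in replicate 1. The 5% limit leaves 12 mural, 15 endothelial-gated and 87 FAP-gated nuclei there. For the split, DESeq2, no block and no filter were not run, since it had no test. Shares of 0.75 against 0.25 gave 435 and 635 genes and at least 6 mural UMIs 482 and 579. With 23 nuclei in replicate 1, genes with few UMIs could not be compared.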
